A study of Homo sapiens with 6 samples.

Results

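Native LDL was compared with vehicle in Huh7 cells, an established line from a human liver cancer. All probe sets of 4 whole-genome Affymetrix U133 Plus 2.0 arrays were compared, of 6 arrays in the series: 2 from control cells and 2 from cells given native LDL (nLDL) at 120 µg/ml. Both groups were grown in DMEM with 10% FBS for 24 h, and nLDL was added to enrich them in cholesterol. Serum itself brings lipoproteins, so the control cells were not free of LDL. The 2 remaining arrays, from cells given a statin at 5 µM, entered the fits only to estimate the spread. The methods call the replicates biological. Neither they nor the labels say that the replicates came from separate cultures, so p-values measure the spread between these samples. Cellular cholesterol was not measured on the arrays.

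LDL taken up by a hepatocyte is broken down in the lysosome, and the freed cholesterol reaches the endoplasmic reticulum. There, SCAP carries the transcription factor precursors SREBP-1 and SREBP-2 towards the Golgi when sterol is scarce, while INSIG proteins hold the complex back when sterol is plentiful. Released SREBP-2 drives the genes of cholesterol synthesis and uptake and SREBP-1c those of fatty acid synthesis, usually together with the CCAAT-binding factor NF-Y. Oxysterols made from surplus cholesterol activate LXR, which drives sterol efflux genes.

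With nLDL, the genes of cholesterol synthesis lay slightly lower along the whole pathway. All 19 measured genes from thiolase to the last reductase were below control, and in 17 of them both nLDL arrays lay below both control arrays, against 18.1% of all 21299 genes. Their median difference was -0.37 on the log2 scale, against -0.002 over all genes. INSIG1, a retention protein of the SCAP complex whose own gene is an SREBP target, had the largest difference of the lipid genes, at 55.0% of its control level. The desaturase genes FADS2, FADS1 and SCD and several metallothioneins were also lower, while CYP26A1, which encodes a retinoic acid hydroxylase, was higher.

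No single probe set passed the main test. In limma, 0.0% of 54613 probe sets were called higher and 0.0% lower at an adjusted p under 0.05 (Benjamini-Hochberg), and the smallest adjusted p was 0.326. At an unadjusted p under 0.05, 1906 probe sets (3.49%) were higher and 1451 (2.66%) lower, 56.8% of them higher. That split depended on scaling, since 46.0% were higher after centring each array on its median and 48.3% after cyclic loess, and quantile normalisation gave 1652 higher and 1655 lower. Of the higher probe sets 54.0% and of the lower ones 36.5% lay in the dimmest 40% of the array (a mean log2 value of at most 4.23), where signal is close to background. The statements below therefore rest on groups of genes and on how far probe sets of a gene agree. With 2 arrays a group, the smallest two-sided p that exact permutation allows is 0.333.

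When limma's prior variance was instead allowed to follow the level and made robust, 58 probe sets passed at an adjusted p under 0.05, 53 lower (0.097% of all) and 5 higher (0.00916%). The median standard error of a difference among bright probe sets (a mean level above 7.34) was 0.0823 with the common prior and 0.0678 with the trended one, while below that level it was larger with the trended prior. None of the 58 was dim, and the lowest mean level among them was 5.12. They stood for 33 genes lower and 4 higher. ACSL4, USP34 and SMAD5 counted as lower through a dimmer probe set each, and their groups overlapped at the brightest. Of 98 measured genes in the lists of cholesterol, fatty acid and triglyceride metabolism, 23 were called lower at their brightest probe set. Outside these lists, 5 of 21201 genes were. The lists were drawn up with earlier results of these data known, so this contrast is not independent evidence. Calls below are named as called only in this fit. Leaving out either control array left 13 calls, and leaving out nLDL replicate 1 or 2 left 33 or 31, but the direction of all 58 differences was kept each time.

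The arrays of both groups resembled each other closely. Pearson's r over all probe sets was 0.9979 between the controls, 0.9976 between the nLDL arrays, and 0.9973 to 0.9978 between groups. The SD of the difference between arrays was 0.162 within control, 0.174 within nLDL and 0.168 to 0.184 across. On the third principal component (13.8% of the variance over 6 arrays), controls lay at -11.9 and -10.3 and nLDL arrays at 9.6 and 10.4. The statin arrays lay at -13 and 15.2 on it. The second component (17.1%) set nLDL replicate 1 at -22.4, against 0.7 for nLDL replicate 2 and 6.7 and 10.5 for the controls. On that component the statin arrays lay at -11.5 and 16.1. Results were therefore also read for each nLDL array alone: replicate 1 lay below both controls in all 19 sterol synthesis genes and replicate 2 in 17, against 7696 and 7458 of all 21299 genes. Hepatocyte and hepatoma markers were bright (median level 13.11), among them AFP, TF and GPC3. The 14 markers of other cell types had a median level of 5.26, 4 of them were dim, and EPCAM, an epithelial adhesion molecule, was the brightest at 10.65. Their part in the results was not tested, but the median difference was 0.02 in both lists.

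Promoter sequences of the responding genes were read to show how their control regions are built. The windows run from 250 bases before to 50 after the annotated start (RefSeq, GRCh38.p14, 5′ to 3′ on the gene's strand). MVK is shown for its CCAAT boxes and because it shares this region with MMAB, NSDHL because it shares it with CETN2, SREBF2 for its sterol regulatory element, and MT1X for the metallothioneins. Capitals mark TCACNCCAC (the sterol regulatory element) and CCAAT in the first 3 windows and the metal response core (TGCACNC or TGCGCNC) in MT1X, on either strand, so CCAAT also appears as ATTGG.
MVK (chr12:109573544-109573843, plus strand): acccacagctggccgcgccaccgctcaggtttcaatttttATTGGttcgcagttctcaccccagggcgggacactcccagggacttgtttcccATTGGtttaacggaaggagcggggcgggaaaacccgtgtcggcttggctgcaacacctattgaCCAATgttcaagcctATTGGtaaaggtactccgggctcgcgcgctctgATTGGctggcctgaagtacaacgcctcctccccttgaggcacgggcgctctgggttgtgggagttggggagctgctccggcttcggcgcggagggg
NSDHL (chrX:152830813-152831112, plus strand): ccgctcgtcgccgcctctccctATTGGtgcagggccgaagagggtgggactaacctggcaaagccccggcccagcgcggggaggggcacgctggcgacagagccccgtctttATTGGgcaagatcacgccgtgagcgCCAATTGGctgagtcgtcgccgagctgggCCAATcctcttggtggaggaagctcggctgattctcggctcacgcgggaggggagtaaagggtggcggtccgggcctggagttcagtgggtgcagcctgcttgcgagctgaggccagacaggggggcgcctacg
SREBF2 (chr22:41832855-41833154, plus strand): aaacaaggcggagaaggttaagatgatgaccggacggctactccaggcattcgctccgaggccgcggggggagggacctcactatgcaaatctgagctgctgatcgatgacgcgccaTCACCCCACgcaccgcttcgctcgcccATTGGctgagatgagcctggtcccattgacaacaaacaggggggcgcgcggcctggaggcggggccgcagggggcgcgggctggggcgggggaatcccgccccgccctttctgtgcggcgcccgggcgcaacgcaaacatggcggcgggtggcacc
MT1X (chr16:56682220-56682519, plus strand): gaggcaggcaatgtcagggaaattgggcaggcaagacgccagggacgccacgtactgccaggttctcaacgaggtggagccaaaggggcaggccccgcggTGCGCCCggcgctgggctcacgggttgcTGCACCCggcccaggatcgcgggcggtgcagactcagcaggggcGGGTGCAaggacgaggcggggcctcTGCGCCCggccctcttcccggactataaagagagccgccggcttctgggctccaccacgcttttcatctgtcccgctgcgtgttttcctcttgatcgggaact

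MVK and NSDHL each held 5 CCAAT boxes, of which a pair in NSDHL overlap on opposite strands, and MSMO1 held 4. Of 27305 promoters of this length, 35.7% held at least 1 CCAAT, 3.42% at least 3 and 1.06% at least 4. Of the 15 sterol synthesis genes with a promoter in the table, 12 held at least 1, 6 at least 3 and 3 at least 4. The strict element TCACNCCAC was in 1.15% of all promoters and in 0 of these 15, and the SREBF2 promoter shown above held it once. Sterol regulatory elements vary in sequence, so the count says only that these letters were not in those windows. The MVK and MMAB starts lie 290 bases apart on opposite strands and their windows share 211 bases. Those of NSDHL and CETN2 lie 306 bases apart and share 195.

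The mevalonate arm makes the isoprenoid building blocks of sterols from acetyl-CoA, and all 8 of its genes lay lower with both nLDL arrays below both controls (median -0.33). HMGCS1 encodes the synthase that commits acetyl-CoA units to the pathway. It read 11.65 and 11.73 in control and 11.15 and 11.22 with nLDL, a difference of -0.50 (SE 0.13). A second probe set lay at -0.57, and neither probe set was called. FDPS encodes farnesyl diphosphate synthase, the branch point to sterols and prenyl groups. It read 12.08 in both controls and 11.61 and 11.62 with nLDL, a difference of -0.46 (SE 0.07). Its replicates lay within 0.01 of each other (SD 0.006 and 0.008, n = 2 each), so the groups were far apart against their spread, and it was called with the trended prior (limma adjusted p = 5.08e-05).

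The isomerase IDI1 read 11.80 and 11.83 in control and 11.47 and 11.42 with nLDL, a difference of -0.37 (SE 0.08). ACAT2, the cytosolic thiolase of the first step, differed by -0.30 (SE 0.08), and both were called with the trended prior. The mevalonate kinase MVK differed by -0.27 (SE 0.09) and the decarboxylase MVD by -0.31 (SE 0.11), with groups that did not overlap and no call. PMVK, the phosphomevalonate kinase, differed by only -0.07 (SE 0.09), less than its standard error.

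The steps from squalene through lanosterol to the demethylated sterols had the largest median difference of any list, -0.42, with 6 of 7 measured genes not overlapping. LSS encodes lanosterol synthase, which closes the sterol rings. It read 11.019 and 10.996 in control and 10.57 and 10.51 with nLDL, a difference of -0.47 (SE 0.08). NSDHL, a dehydrogenase that helps remove the methyl groups at carbon 4, read 8.72 and 8.71 in control and 8.29 and 8.27 with nLDL, a difference of -0.44 (SE 0.07). In both genes the replicates of a group differed by far less than the groups.

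The squalene epoxidase SQLE (-0.42, SE 0.09), the ketoreductase HSD17B7 (-0.42, SE 0.08), the squalene synthase FDFT1 (-0.40, SE 0.08) and the methylsterol oxidase MSMO1 (-0.37, SE 0.09) were all called lower with the trended prior, as were LSS and NSDHL. HSD17B7 was read by a probe set of a type that can bind related transcripts, as were IDI1 above and FADS1 below. The IDI1 probe sets that were called are all of this type. TM7SF2, a sterol reductase that shares its step with the lamin B receptor, differed by -0.12 (SE 0.10), and its nLDL replicate 2 lay within the control range. CYP51A1, the lanosterol demethylase, was read only by probe sets shared with LRRD1, which lay lower by -0.47 and -0.35 without overlap.

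Among the late enzymes, the differences varied in size. DHCR7 encodes the reductase that makes cholesterol from 7-dehydrocholesterol. It read 10.84 and 10.83 in control and 10.31 and 10.33 with nLDL, a difference of -0.52 (SE 0.09). EBP (-0.22, SE 0.08) and SC5D (-0.26, SE 0.08), the isomerase and desaturase that act before it, did not overlap either, and EBP and DHCR7 were called with the trended prior.

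**Figure D1:**
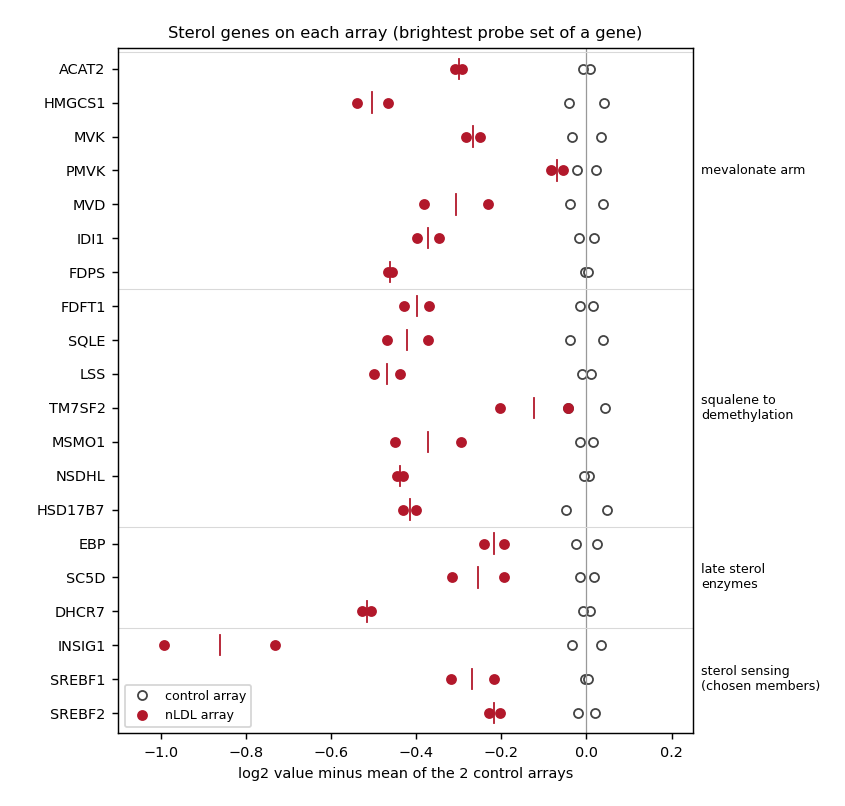
Log2 value of each array minus the mean of the 2 control arrays (horizontal axis) for sterol genes (rows) at the brightest probe set. Open circles are control arrays, filled circles nLDL arrays and vertical bars the nLDL mean; the nLDL arrays lie to the left of both controls in all rows drawn except TM7SF2, and INSIG1 is farthest to the left.

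The genes that sense and transport sterols responded in part. In the list of SREBP processing and sterol sensing, 3 of 12 genes lay lower without overlap and 2 higher, against 18.1% and 17.7% of all genes, with a median of -0.03, so the list as a whole stood close to all genes. INSIG1 read 9.83 and 9.89 in control and 8.87 and 9.13 with nLDL, a difference of -0.86 (SE 0.11). Both nLDL arrays lay far below both controls, and all 3 of its probe sets were called with the trended prior. SREBF1 and SREBF2, the genes of the SREBP precursors themselves, differed by -0.27 (SE 0.08) and -0.22 (SE 0.07), again without overlap but without a call. INSIG2 (-0.05, SE 0.12), the related retention protein, and SCAP (-0.04, SE 0.08) overlapped with control.

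STARD4, a soluble carrier of sterol between membranes, read 9.35 and 9.37 in control and 8.95 and 9.05 with nLDL, a difference of -0.36 (SE 0.08), and was called with the trended prior. NPC1, which exports cholesterol from lysosomes (-0.17, SE 0.08), and TMEM97, the sigma-2 receptor that binds NPC1 (-0.16, SE 0.08), did not overlap. Of the 14 genes of esterification and sterol transport, 4 lay lower without overlap and 0 higher (median -0.05), against 18.1% and 17.7% of all genes. The cholesterol-esterifying enzymes SOAT1 and SOAT2 differed by 0.02 and -0.03. In the list of lipoprotein receptors and their regulators, 4 of 12 lay lower without overlap and 0 higher (median -0.03). LRP8, a receptor for apolipoprotein E and reelin, lay lower by -0.30 (SE 0.09), while the groups overlapped for its relatives LRP1, LRP5 and LRP6.

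Genes of the LXR programme showed no common direction. Of 13 LXR receptors, targets and efflux genes, 1 lay higher and 4 lower without overlap, against 17.7% and 18.1% of all genes, with a median of -0.04. ABCG1, an LXR target that hands cholesterol to HDL, read 4.04 and 3.82 in control and 4.07 and 4.17 with nLDL, near background, a difference of 0.20 (SE 0.10). ABCA1, the exporter to lipid-poor apolipoprotein, was looked up after the values had been seen. It read 10.37 and 10.45 in control and 10.26 and 10.40 with nLDL, a difference of -0.09 (SE 0.09). MYLIP, an LXR-induced ubiquitin ligase of lipoprotein receptors, differed by -0.14 (SE 0.10) with overlapping groups.

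Fatty acid synthesis genes lay on the same side of control with smaller differences. All 12 genes of acetyl-CoA supply and fatty acid synthesis lay below control, 7 without overlap against 18.1% of all genes, with a median of -0.15. The median was -0.0886 with means over the probe sets of each gene. ACSS2, the cytosolic acetyl-CoA synthetase, read 8.31 and 8.24 in control and 7.85 and 7.86 with nLDL, a difference of -0.42 (SE 0.08), and was called with the trended prior. The acetyl-CoA carboxylase ACACA (-0.22, SE 0.09), the citrate lyase ACLY (-0.19, SE 0.08), the citrate carrier SLC25A1 (-0.16, SE 0.09) and the malic enzyme ME1 (-0.11, SE 0.07) did not overlap and were not called. PANK3, a kinase of coenzyme A synthesis, differed by -0.13 (SE 0.08).

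Among 12 desaturases and elongases, 6 lay lower and 1 higher without overlap, against 18.1% and 17.7% of all genes (median -0.14). FADS2, the delta-6 desaturase, read 9.58 and 9.60 in control and 9.05 and 9.10 with nLDL, a difference of -0.52 (SE 0.07). FADS1, its neighbour and the delta-5 desaturase, read 11.47 and 11.34 in control and 10.98 and 11.09 with nLDL, a difference of -0.37 (SE 0.09). SCD, which makes oleate, read 12.76 and 12.81 in control and 12.36 and 12.50 with nLDL, a difference of -0.36 (SE 0.08). All 3 were called with the trended prior.

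The elongases ELOVL6 (-0.25, SE 0.11) and ELOVL5 (-0.18, SE 0.08), which extend saturated and polyunsaturated chains, did not overlap. ELOVL1, ELOVL2 and FADS3 overlapped with control, and the 1 higher gene, ELOVL4 (0.26), was dim. The list's median rested in part on nLDL replicate 2, and was -0.0574 without that array. With means over the probe sets of each gene it was -0.051.

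Triglyceride and lipid droplet genes lay on both sides of control. Of 17 genes, 5 lay lower and 3 higher without overlap, against 18.1% and 17.7% of all genes, and the median was 0.01. PNPLA3, a droplet-bound lipase that SREBP-1c induces, read 9.79 and 9.69 in control and 9.28 in both nLDL arrays, a difference of -0.46 (SE 0.08). LPIN1, a phosphatidate phosphatase, differed by -0.41 (SE 0.08) and GPAM, the mitochondrial glycerol-phosphate acyltransferase, by -0.19 (SE 0.09), and PNPLA3 and LPIN1 were called with the trended prior. CIDEB (0.18, SE 0.09), a droplet protein of hepatocytes, lay higher without overlap and was not called.

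**Figure D2:**
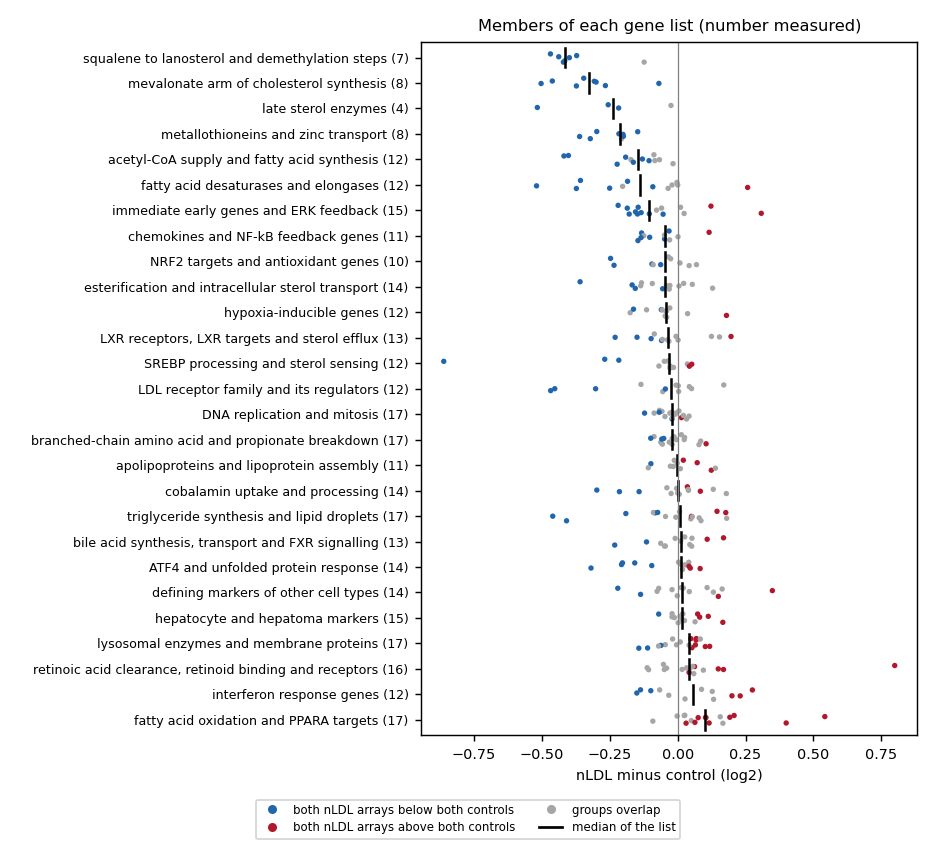
Difference nLDL minus control (log2, horizontal axis) of each member (points) of 27 gene lists (rows, number measured in brackets), ordered by their medians (black bars). Blue and red mark genes whose 2 nLDL arrays lie below or above both controls; the 3 cholesterol synthesis lists stand at the top with medians from -0.42 to -0.24, and fatty acid oxidation at the bottom with 0.10.

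Fatty acid oxidation genes lay on the other side of control. Of 17 genes of oxidation and PPARA targets, 10 lay higher and 0 lower without overlap, against 17.7% of all genes higher, with a median of 0.10. PDK4, a kinase that shuts off pyruvate dehydrogenase, read 4.68 and 4.55 in control and 5.01 and 5.02 with nLDL, a difference of 0.40 (SE 0.11) at a level near background.

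CPT1A, which gates the entry of long chains into mitochondria (0.21, SE 0.09), and SLC25A20, the carnitine carrier of the inner membrane (0.19, SE 0.09), lay higher without overlap in both nLDL arrays. The median of the list was 0.14 for nLDL replicate 2 and 0.07 for replicate 1, with 15 and 11 of 17 genes above both controls, against 34.0% and 36.0% of all genes. Without control replicate 2 the median was 0.0665. The size thus depended on the array and the direction did not.

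The metallothioneins, small proteins that bind zinc and copper, were lower. Of the 8 genes of this list, which includes zinc transport, 7 lay lower without overlap and 0 higher, against 18.1% and 17.7% of all genes, with a median of -0.21. MT1F read 9.39 and 9.42 in control and 8.99 and 9.09 with nLDL, a difference of -0.36 (SE 0.08). MT1X read 10.26 and 10.33 in control and 9.97 in both nLDL arrays, a difference of -0.32 (SE 0.08), and both genes were called with the trended prior. MT1E (-0.30, SE 0.08), MT1H (-0.22, SE 0.08) and MT2A (-0.20, SE 0.08) lay lower without a call. These genes are near-identical copies, so probes may read several of them and the counts are not independent.

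SLC30A1, the zinc exporter that the same metal-sensing factor MTF1 induces and that is no copy of them, differed by -0.20 (SE 0.09) without overlap. The MT1X window above held 4 metal response cores, and those of MT1H and MT2A held 8 each. At least 4 cores were found in 3 of the 4 promoters matched from this list and in 0.593% of all promoters. Zinc was not measured.

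The largest difference upward was that of CYP26A1, the hydroxylase that clears retinoic acid and is itself induced by it. It read 7.57 and 7.69 in control and 8.36 and 8.51 with nLDL, a difference of 0.80 (SE 0.09), 174% of control. It was the 1 gene higher by at least 1.5-fold, against 4 lower. Other retinoid genes differed less: 5 of 16 lay higher and 0 lower without overlap (median 0.04), against 17.7% and 18.1% of all genes, among them the receptors RARB (0.17, SE 0.16) and RARG (0.15, SE 0.09), and its relative CYP26B1 differed by 0.06 (SE 0.07).

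AKR1C1 and AKR1C2, near-identical aldo-keto reductases that act on steroids, were also called higher with the trended prior. AKR1C1 read 13.24 in both controls and 13.46 and 13.40 with nLDL (0.19, SE 0.08), and AKR1C2 read 12.49 and 12.37 in control and 12.69 and 12.64 with nLDL (0.23, SE 0.08). They share sequence, so their probe sets are not separate evidence.

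**Figure D3:**
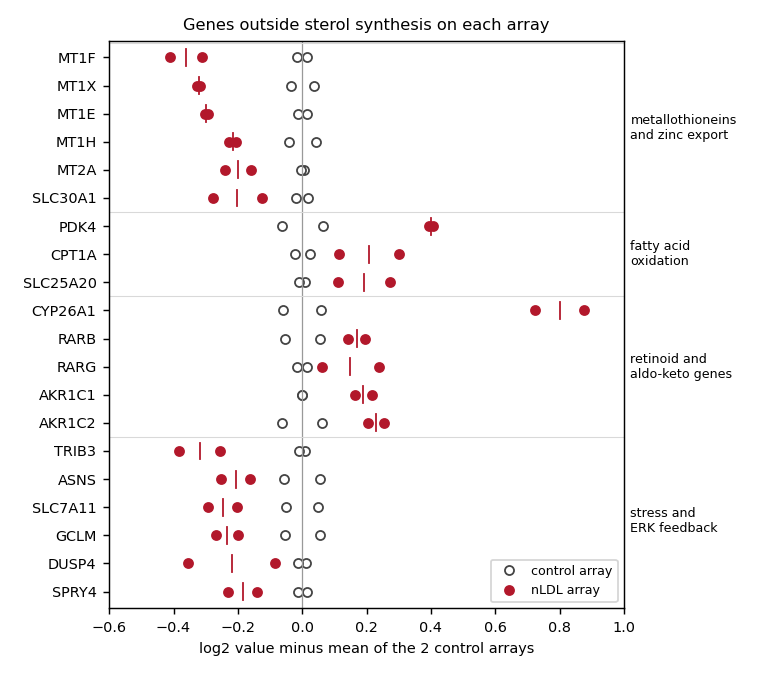
Log2 value of each array minus the mean of the 2 control arrays (horizontal axis) for genes outside sterol synthesis (rows), at the brightest probe set. Open circles are control arrays, filled circles nLDL arrays and bars the nLDL mean; metallothioneins lie to the left of control, and CYP26A1 farthest to the right.

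Smaller differences were seen in stress and feedback genes. In the list of immediate early genes and ERK feedback, 9 of 15 genes lay lower and 2 higher without overlap (median -0.10), against 18.1% and 17.7% of all genes. The ERK phosphatase DUSP4 (-0.22, SE 0.10) and the ERK inhibitor SPRY4 (-0.19, SE 0.08) were among the lower ones, and FOS, at a dim level, differed by 0.31 (SE 0.08). Of 14 ATF4 and unfolded protein response genes, 5 lay lower and 3 higher (median 0.01), with TRIB3, a pseudokinase induced by ATF4, at -0.32 (SE 0.08) and the asparagine synthetase ASNS at -0.21 (SE 0.09). The groups overlapped for the chaperone HSPA5 and the factor DDIT3, which were looked up after the values had been seen.

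Of 10 NRF2 and antioxidant genes, 4 lay lower and 0 higher without overlap (median -0.05), against 18.1% and 17.7% of all genes, led by the cystine transporter SLC7A11 (-0.25, SE 0.09) and GCLM, a subunit of the first enzyme of glutathione synthesis (-0.23, SE 0.10). Of 11 chemokine and NF-κB genes, 6 lay lower and 1 higher (median -0.05), with CXCL8 at -0.15 (SE 0.09). Of 12 interferon genes, 3 lay lower and 3 higher. None of the genes in this paragraph was called in either fit.

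Lysosomal genes differed by little. Of 17 measured lysosomal genes, 7 lay higher and 3 lower without overlap (median 0.04), against 17.7% and 18.1% of all genes, with the proteases CTSD (0.12, SE 0.11) and CTSB (0.10, SE 0.07) above and the calcium channel MCOLN1 (-0.14, SE 0.13) below. Proliferation genes stayed near 0 (3 of 17 lower, 1 higher, median -0.02), with differences from -0.12 to 0.04. Apolipoproteins (median -0.002), bile acid genes (0.01) and branched-chain amino acid and propionate genes (-0.02) also had medians close to that of all genes. In the bile acid list FGF19, an enterohepatic hormone that FXR induces, differed by -0.23 (SE 0.08).

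MMAB stood out among the cobalamin genes. It encodes the mitochondrial adenosyltransferase that makes the B12 cofactor of methylmalonyl-CoA mutase. It read 9.84 and 9.77 in control and 9.47 and 9.55 with nLDL, a difference of -0.30 (SE 0.08), close to the -0.27 of MVK across their shared promoter region. Its 2 other probe sets, at -0.47 and -0.53, were called with the trended prior. Of the 14 cobalamin genes 3 lay lower and 2 higher without overlap (median 0.003), against 18.1% and 17.7% of all genes, and TCN2, the blood carrier of cobalamin, differed by -0.21 (SE 0.10).

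Agreement among probe sets gave a second view that did not use the variance estimate. Of 5679 genes with at least 3 probe sets, 66 (1.16%) lay lower without overlap at every probe set and 37 (0.652%) higher. Probe sets of a gene share its RNA and their hybridisations, so they are not replicates. Among the 10 lower genes with the largest median difference were INSIG1, SCD, FDFT1, LSS, MMAB, SQLE, FADS1, DUSP4 and LRP8. The 10 highest, such as TANC2, KMO and GRIN1, mostly included probe sets near background. When dim probe sets were left out, 69 of 3371 genes lay lower at every probe set and 14 higher. All 40 probe sets of the sterol synthesis genes were then read together: 38 lay below control and 35 without overlap, against 18.2% of all probe sets lower and 17.8% higher.

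The exceptions were a probe set of MVK at a low level (0.18) and 1 of IDI1 (0.003). SCD had 4 probe sets: the 2 with lower levels differed by -0.96 and -0.88 and the brighter ones by -0.48 and -0.36. The 3 probe sets of MMAB, from the lowest to the highest level, differed by -0.53, -0.47 and -0.30, while the 4 probe sets of SQLE lay between -0.52 and -0.42 over a wide range of levels. INSIG1 lay between -0.89 and -0.80. In 63.8% of all genes with at least 2 probe sets above the dim level the brightest probe set had a smaller difference than the median of the others, and among the genes called lower in 13 of 26.

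**Figure D4:**
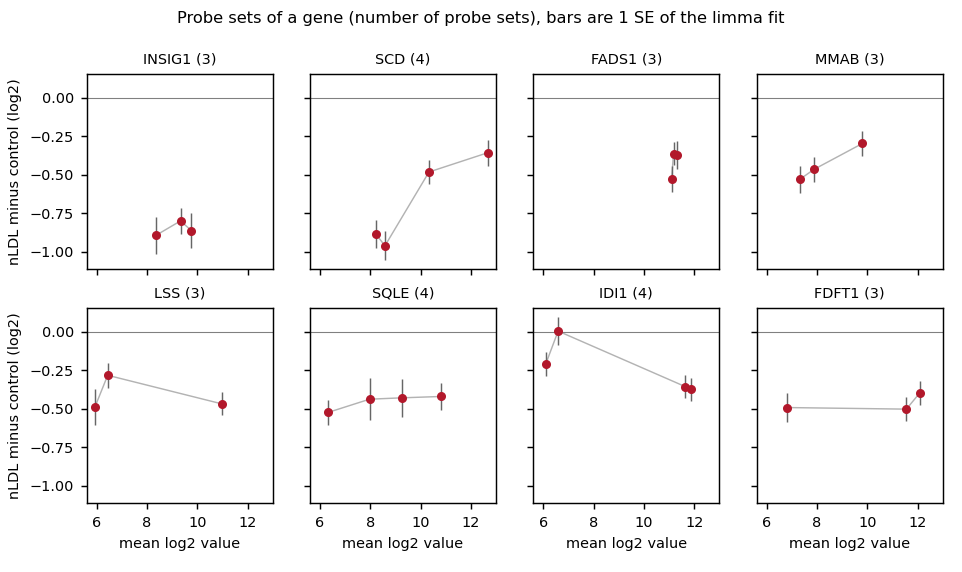
Difference nLDL minus control (log2, vertical axis) against the mean log2 value over 6 arrays (horizontal axis) for each probe set of 8 genes, with bars of 1 SE from limma. The probe sets of INSIG1, SQLE, LSS, FADS1, FDFT1, MMAB and SCD all lie below 0, those of SCD and MMAB closer to 0 at higher levels, and 1 of IDI1 lies at 0.

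Among the largest differences of single genes, lipid genes filled much of the lower end and none of the upper end. Of the 50 lowest differences among 15279 genes above the dim level, 10 were sterol synthesis genes and 19 belonged to the cholesterol, fatty acid and triglyceride lists. Of the 50 highest, 0 did. As the lists were drawn up with earlier results known, these counts describe the data and are not independent evidence. RUSC1-AS1, an antisense gene beside FDPS, read 8.85 and 8.84 in control and 8.21 and 8.04 with nLDL, a difference of -0.72 (SE 0.10), larger than that of FDPS. The array gives no strand check against its neighbour, so its signal cannot be told apart from transcripts that run on from nearby.

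OLFM3, an olfactomedin gene, differed by -0.65 (SE 0.08) and FZD9, a Wnt receptor gene, by -0.57 (SE 0.11), both at low levels. The nucleoside transporter SLC29A2 (-0.47, SE 0.09) and the cartilage collagen COL2A1 (-0.32, SE 0.08) were called lower with the trended prior and belong to no lipid list. The largest difference of all was that of a probe set with no gene symbol, which read 7.68 and 7.49 in control and 6.19 and 6.49 with nLDL (-1.24, SE 0.13). Several other large differences upward were read at low levels, among them those of the non-coding genes GTF3C2-AS1 (0.54, SE 0.10) and ARLNC1 (0.54, SE 0.09) and ADH1B, an alcohol dehydrogenase (0.46, SE 0.13).

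Some lower genes lay side by side. FADS1 and FADS2, MVK and MMAB, and FDPS and RUSC1-AS1 are neighbours. CETN2, a centrin gene that shares its promoter region with NSDHL, read 9.95 and 9.89 in control and 9.63 and 9.71 with nLDL, a difference of -0.25 (SE 0.08). OLMALINC, a non-coding gene next to SCD, read 6.28 and 6.40 in control and 5.89 and 5.83 with nLDL (-0.48, SE 0.09). Neighbours were taken within 2 places of the genes called lower, MVK and CYP26A1, if above the dim level and not called themselves. Of these 56, CETN2 and OLMALINC among them, 13 lay lower without overlap, 8 higher and 35 overlapped. Their median was -0.02, against -0.009 over all genes above the dim level. Of 15279 such genes, 3142 lay lower and 2373 higher without overlap. The 56 include MVK and MT1H, which belong to lists that lay lower.

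**Figure D5:**
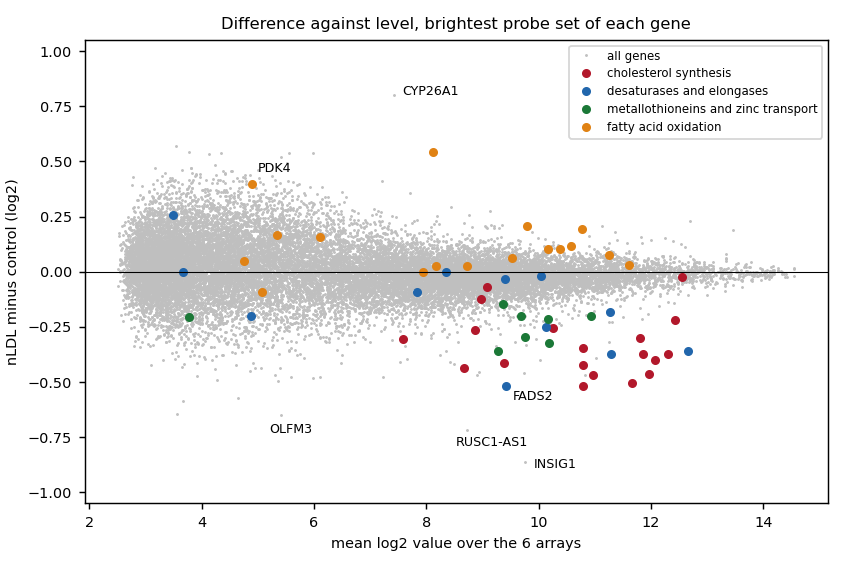
Difference nLDL minus control (log2, vertical axis) against mean log2 value over 6 arrays (horizontal axis) for 21299 genes at their brightest probe set (grey points), with 4 gene groups coloured. Most cholesterol synthesis genes (red) lie below the band of other genes at high levels, where that band is narrow, and low-level genes scatter widely on both sides of 0.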

How the data were processed

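Huh7 RNA was read on 6 Affymetrix arrays in 3 groups of 2. Normalisation by the authors used GeneSpring GX 11.5, and the deposited values are log2 signals by robust multi-array averaging, 1 for each probe set. Depth does not apply to arrays, and their small number sets the precision. Annotation came from another deposited table, of which 6 value columns that matched no sample were not used.

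Of 54613 probe sets tested (62 array controls were dropped), 43383 carried 1 symbol, 1663 carried several and 9567 carried none. Current symbols and promoters were taken from RefSeq (GRCh38.p14). Each gene was read at its brightest probe set with 1 symbol. Differences are nLDL minus control means. The limma 3.58.1 package (R 4.3.3) fitted group means to every array and moderated the variances, with two-sided tests, 3 residual and 4.08 prior degrees of freedom and Benjamini-Hochberg adjustment across probe sets, and SE is that of the fit. It was tested on simulated data. Lists are described by counts and medians, without a set test.

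Members of the sterol and fatty acid synthesis lists could be named, with up to 4 members of each other list by size of difference, MMAB, the 10 largest differences each way, the 10 genes each way with the largest agreeing differences over probe sets, and those called with the trended and robust prior. The 28 gene lists and this rule were chosen with earlier results of these data known. One list of other sterol-responsive genes came from such results, so its 10 genes (all lower without overlap, median -0.24) are not independent evidence. MT2A, SLC30A1, CETN2, OLMALINC and ABCA1 fall outside this rule and were named after their values had been seen, as were HSPA5 and DDIT3. Certain genes within this rule are not reported here.

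Alternatives were the 2 groups alone, the replicate number as a block, other priors, the methods' test, a minimum fold of 1.5, means over probe sets, 3 further normalisations, no dim probe sets, and leaving out each array. Same-numbered arrays of nLDL and control did not deviate together (correlation 0.049).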

Additional observations from a re-analysis of the deposited data

How the results depend on the processing

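With limma's common prior, no probe set was called under any other normalisation, with the nLDL and control arrays alone, without dim probe sets, with means over probe sets or without any 1 array. The trended and robust prior called 58 and the trended prior without robust estimation, added after seeing the data, 60, while robust estimation alone called 0. The methods' test called 1982 probe sets at its own unadjusted threshold and fold, and 0 after adjustment. With the replicate number as a block, limma called 0, and 2068 probe sets were higher and 1636 lower at an unadjusted p under 0.05. With the trended and robust prior the block called 95, which included all 58. Without dim probe sets 1033 were higher at an unadjusted p under 0.05, and 2373 genes were higher without overlap, since fewer features were tested.

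Genes lower at every probe set numbered 40 after quantile normalisation, 100 after median centring, 315 with at least 2 probe sets and 24 without the _s_at and _x_at types. Those higher numbered 37 after quantile normalisation, 18 after median centring, 14 without dim probe sets, 246 with at least 2 probe sets and 13 without the _s_at and _x_at types. The excess of lower over higher genes was thus small after quantile normalisation. Of the 86 genes given with a difference, 27 passed in limma with the trended and robust prior, and 83 kept their direction under each alternative run. The exceptions were INSIG2, SOAT1 and SOAT2, all close to 0. Leaving out 1 array gave -0.18 to 0.0777 for INSIG2, -0.0178 to 0.0621 for SOAT1 and -0.0745 to 0.0171 for SOAT2. SOAT1 was at -0.00215 with probe sets averaged, and SOAT2 at 0.0015 after quantile normalisation.

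The medians of the synthesis lists kept their sign. Leaving out 1 array gave -0.36 to -0.30 for the mevalonate arm, -0.43 to -0.37 for squalene to demethylation, -0.18 to -0.12 for acetyl-CoA and fatty acid synthesis, -0.147 to -0.0574 for desaturases, -0.28 to -0.19 for metallothioneins and 0.0665 to 0.137 for fatty acid oxidation. Acetyl-CoA and fatty acid synthesis had -0.12 after quantile normalisation, -0.13 after cyclic loess and -0.0886 with means over probe sets. Desaturases had -0.19 without dim genes and -0.051 with means over probe sets. Within replicate number 1, as a replicate block, desaturases had -0.0813 and fatty acid oxidation 0.0712, and within number 2 oxidation had 0.13 and metallothioneins -0.28. Many lists with medians near 0 changed sign under at least 1 alternative. Among them were lysosomal genes (-0.0085 with means over probe sets, -0.0131 to 0.0527 leaving out 1 array) and retinoid genes (-0.0044 to 0.0527 leaving out 1 array). Proliferation genes had 0.0016 after quantile normalisation and 0.0008 after cyclic loess. Interferon genes went from 0.0575 to -0.048 without nLDL replicate 2, and hypoxia-inducible genes from -0.0445 to 0.0287 without nLDL replicate 1. The lists of lipoprotein receptors, triglyceride, apolipoprotein, bile acid, cobalamin, propionate and unfolded protein response genes changed sign too. The causes were not tested. Counts without overlap were not run with an array left out, since 1 array cannot be compared alike. Differences under about 0.1 are close to the SE of most genes, and dim probe sets bound what could be read.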
